A study of Mus musculus with 2 samples.

Results

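The transcripts of 8 genes encoding mRNA-destabilising proteins were measured in progenitors of group 2 innate lymphoid cells (ILC2). They comprise the Zfp36 family (Zfp36, Zfp36l1, Zfp36l2), the Regnases (Zc3h12a, Zc3h12c, Zc3h12d) and the Roquins (Rc3h1, Rc3h2). The 8 genes were found by symbol among the 27179 genes of the deposited tables, and each matched 1 row. The cells came by flow cytometry sorting from bone marrow of C57BL/6 mice at 8 weeks of age, per the labels, and the series title calls them wild type. Each of the 2 libraries was made from a pool of 8 mice, with 100 ng of RNA isolated by RNeasy Micro; sort antibodies and sex are not stated in the labels. There was 1 group, with no other genotype, treatment or time, and its libraries are named pool 1 and pool 2 by accession. In each file the column heading bears the code of the other library (0 of 2 headings matched); files were kept under their own samples here, and with headings that are correct the names pool 1 and pool 2 swap in every ratio.

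Many lymphocyte mRNAs for cytokines and signalling regulators carry short destabilising elements in the 3′ untranslated region (3′ UTR). Zfp36 proteins bind AU-rich elements built around the heptamer UAUUUAU through paired CCCH zinc fingers and recruit the CCR4-NOT deadenylase, which shortens the poly(A) tail. Roquins bind stem-loops through their ROQ domain and recruit the same complex, whereas Regnase-1 cuts stem-loop mRNAs itself with a PIN-like nuclease domain, aided by the helicase Upf1. In mouse T cells loss of Regnase-1 or of Roquins leads to excess cytokine and co-stimulator expression.

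Since Zfp36 transcripts can themselves be targets of the proteins they encode, the heptamer was first sought in the annotated 3′ UTRs of the 8 genes (GENCODE M21, GRCm38, the longest 3′ UTR of each gene). Zfp36, Zfp36l1 and Zfp36l2 each held 3 heptamers, a number reached or exceeded by 4.06% of the 20851 genes read, and Rc3h2 also held 3. Rc3h1 and Zc3h12c held 2, while Zc3h12a and Zc3h12d held 0. The nonamer form, TTATTTATT in DNA letters, was present once in each Zfp36 family gene and once in each Roquin gene, against 7.42% of all genes with any. The 3′ UTRs of these genes ran from 774 bases in Zfp36 to 7181 in Rc3h1, against a median of 936 over all genes. The part of length in the heptamer and nonamer counts was not tested. The windows below show that nonamer in capitals in the 3 Zfp36 family genes and in Tnf and Csf2, cytokine genes whose mRNAs are well-known Zfp36 targets; the Tnf and Csf2 windows also hold overlapping copies of the repeat in lower case.
Zfp36 (chr7:28376951-28376979, minus strand): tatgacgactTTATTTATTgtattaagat
Zfp36l1 (chr12:80108167-80108195, minus strand): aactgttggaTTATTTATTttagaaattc
Zfp36l2 (chr17:84184914-84184942, minus strand): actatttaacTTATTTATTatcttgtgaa
Tnf (chr17:35199689-35199717, minus strand): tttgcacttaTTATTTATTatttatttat
Csf2 (chr11:54247329-54247357, minus strand): ttttaaatatTTATTTATTtatttattta
A match is a description of the sequence and not evidence of binding in these cells.

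Library totals were recovered from the steps between the deposited RPKM values (reads per kilobase of gene length, scaled to a common library size). They were 20216146 reads in pool 1 and 19834586 in pool 2. These are totals of the RPKM scale and may differ from the reads sequenced. Detection meant at least 1 RPKM in each pool, which 11013 genes reached. All 10 ILC2 markers listed for the check of the label were detected, with the ILC2 transcription factor Gata3 at 292 RPKM in pool 1 and 250.3 RPKM in pool 2, and Id2, at 709.7 and 287 RPKM, was the one 2-fold apart. Values with an error are mean ± SD over n = 2 pools. Genes listed as markers of other marrow cells were present too, and their summed RPKM differed between the pools. In pools 1 and 2 the sums were 1009 and 2415 for 8 neutrophil genes, 919 and 2620 for 6 erythroid genes, 34.6 and 529 for 6 eosinophil genes, 35.1 and 57.1 for 6 B cell genes, 343 and 431 for 6 monocyte and macrophage genes, 243 and 407 for 6 T cell genes (Cd8a was listed at 0 in both), and 75.3 and 2.22 for 5 bone stroma genes. Some sums rest largely on 1 gene. Prg2 was at 27.2 and 471 RPKM in the eosinophil list, and Cd79b at 33.5 and 47.8 in the B cell list. Ccr2, the highest of the monocyte and macrophage list, was at 202 and 183, against the direction of its sum. Whether such genes were expressed by the progenitors themselves was not tested. The part of other marrow cells in the ratios between the pools was not tested either. In bulk RNA, fewer cells of a type and less RNA per cell cannot be told apart.

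Of the 8 genes, 7 were detected. The Zfp36 family was abundant, at means of 218 to 1453 RPKM, Zc3h12a and the Roquins lay between 4.50 and 14.9 RPKM, and Zc3h12d and Zc3h12c were low, at 2.42 and 0.792 RPKM. The median level of the 7 detected genes was 3.70 (log2(RPKM + 0.1)), against 3.86 over all detected genes, and that of all 8 was 3.35. Ordered by mean RPKM, the sequence was Zfp36, Zfp36l1, Zfp36l2, Zc3h12a, Rc3h1, Rc3h2, Zc3h12d and Zc3h12c. The ranges over the pools did not overlap between Zfp36l2 and Zc3h12a, Rc3h1 and Rc3h2, Rc3h2 and Zc3h12d, or Zc3h12d and Zc3h12c. They overlapped between Zfp36 and Zfp36l1, Zfp36l1 and Zfp36l2, and Zc3h12a and Rc3h1. Within a pool, which the genes share, Zfp36l1 was above Zfp36l2 in both, 1.15-fold in pool 1 and 1.48-fold in pool 2, and Zc3h12a was above Rc3h1, 2.55-fold and 1.02-fold. The log2 difference within a pool was 0.38 ± 0.26 for Zfp36l1 over Zfp36l2, and it was smaller than its spread for Zfp36 over Zfp36l1 (1.08 ± 2.89) and for Zc3h12a over Rc3h1 (0.69 ± 0.93).

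**Figure D1:**
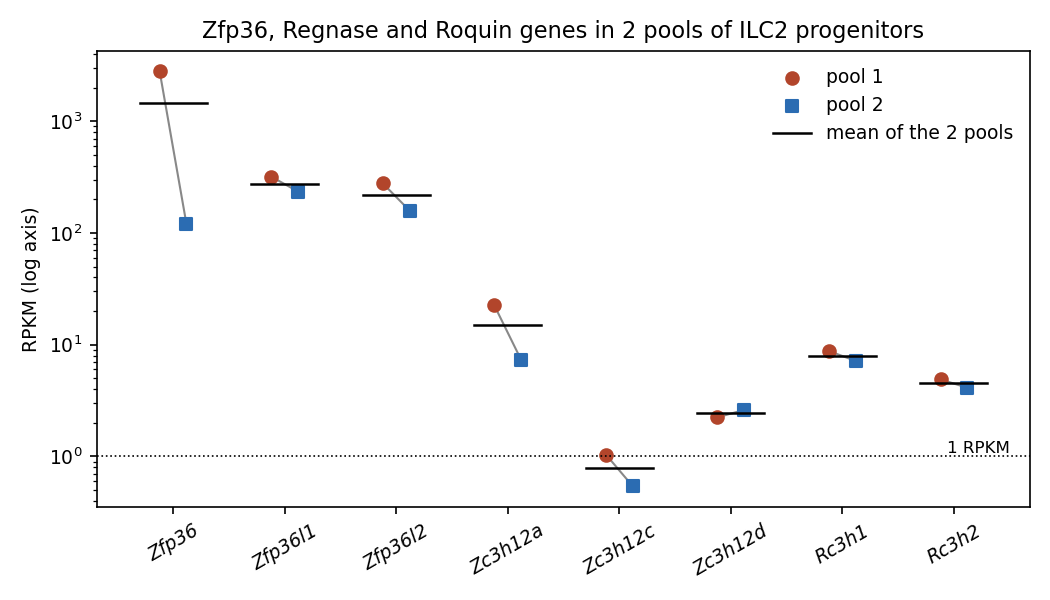
RPKM (log axis) of the 8 genes in pool 1 (circles) and pool 2 (squares), with a bar at the mean of the 2 pools; the dotted line marks 1 RPKM. Zfp36 was far apart between the pools at 2786 and 120.3 RPKM, while the Roquin pairs lay close together.

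Zfp36, which encodes tristetraprolin (Entrez ID 22695, chromosome 7, 28376784 to 28379228), stood at 2786 RPKM in pool 1 and 120.3 RPKM in pool 2. This is 23.1-fold higher in pool 1, and the only one of the 8 genes past 4-fold, as 0.372% of all detected genes were. With 99420 and 4211 reads, the exact 95% counting interval of the ratio was 22.5 to 23.9, an interval that covers counting error alone and compares the libraries. Zfp36 took 0.492% of the recovered library total in pool 1 and 0.0212% in pool 2. It ranked 8th among all genes by RPKM in pool 1 but 636th in pool 2.

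The paralogs Zfp36l1 and Zfp36l2, which in mouse thymocytes act together to prevent leukaemia, varied much less than Zfp36. Zfp36l1 (chromosome 12, 80107760 to 80113013) was at 319 RPKM in pool 1 and 235 RPKM in pool 2, 1.36-fold higher in pool 1 (277 ± 59.7). Zfp36l2 (chromosome 17, 84183924 to 84187947) was at 278 RPKM in pool 1 and 159 RPKM in pool 2, 1.75-fold higher in pool 1 (218 ± 84.5). Both remained below 2-fold, though 95.4% and 98.6% of all detected genes had a ratio at or below theirs. They ranked 179th and 218th in pool 1 and 246th and 429th in pool 2. The order within the family therefore depended on the pool. Zfp36 was 8.73-fold above Zfp36l1 in pool 1, whereas Zfp36l1 was 1.95-fold above Zfp36 in pool 2. Of the summed RPKM of the family, Zfp36 made up 82.3% in pool 1 and 23.4% in pool 2, Zfp36l1 9.43% and 45.7%, and Zfp36l2 8.22% and 30.9%. The family sum was 3384 RPKM in pool 1 and 514 RPKM in pool 2, or 6.59-fold higher in pool 1, and without Zfp36 it was 1.52-fold higher. All 3 genes overlap an annotated long non-coding gene on the opposite strand (GENCODE M21). The strand setting of the read counting is not given in the sources used here, so reads of the partners cannot be told apart.

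**Figure D2:**
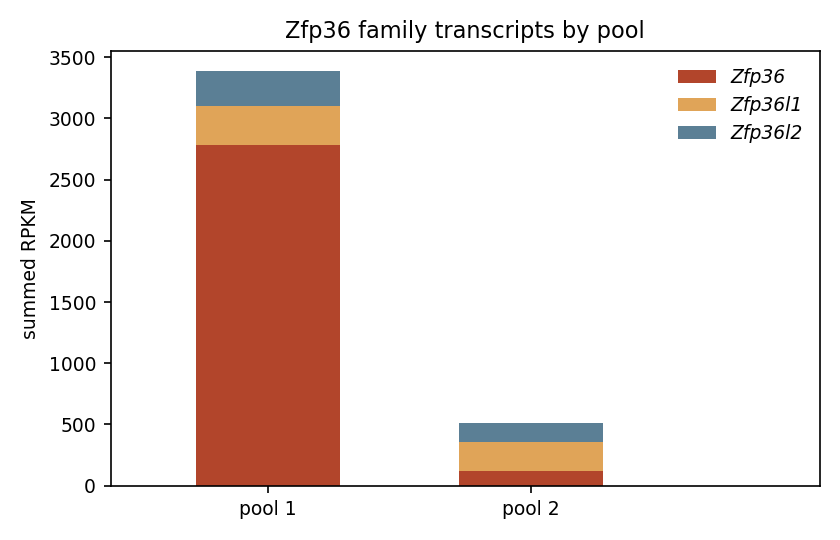
Summed RPKM of Zfp36, Zfp36l1 and Zfp36l2 in pool 1 and pool 2, stacked from 0 with 1 library a bar. The sum was 3384 RPKM in pool 1 and 514 RPKM in pool 2, and Zfp36 made up 82.3% and 23.4% of it.

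Among the Regnases, Zc3h12a carried most of the RNA. Zc3h12a encodes Regnase-1 (Entrez ID 230738, chromosome 4, 125118414 to 125127881) and was at 22.5 RPKM in pool 1 and 7.33 RPKM in pool 2, 3.04-fold higher in pool 1. It made up 87.3% of the summed Regnase RPKM in pool 1 and 69.9% in pool 2. Zc3h12d, which encodes Regnase-4 (chromosome 10, 7832323 to 7870397), was the single gene of the 8 that was lower in pool 1, at 2.24 RPKM against 2.61 in pool 2. Its read ratio of 0.856 had a counting interval of 0.699 to 1.05, so no difference was detectable at this depth. Zc3h12c, which encodes Regnase-3 (chromosome 9, 52109569 to 52168730), was at 1.04 RPKM in pool 1 and 0.543 RPKM in pool 2, below the detection threshold in pool 2. It rested on 129 and 66 reads, with a read ratio of 1.92 (counting interval 1.41 to 2.62). The deposited values of Zc3h12a allow its reads only up to a common factor. At the annotated length they are about 1250 and 400, with a read ratio of 3.07 (2.74 to 3.44).

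The Roquins were the steadiest family. Rc3h1, which encodes Roquin-1 (chromosome 1, 160906411 to 160974976), was at 8.77 RPKM in pool 1 and 7.15 RPKM in pool 2 (7.96 ± 1.15). Rc3h2, which encodes Roquin-2 (chromosome 2, 37368861 to 37424370), was at 4.89 RPKM in pool 1 and 4.12 RPKM in pool 2 (4.50 ± 0.550). Rc3h1 lay above Rc3h2 by 0.83 (log2) in pool 1 and 0.78 in pool 2, and made up 64.2% and 63.5% of their summed RPKM. Both were slightly higher in pool 1, 1.22-fold and 1.18-fold, with counting intervals of the read ratio of 1.15 to 1.31 and 1.08 to 1.31. Of all detected genes, 90.2% and 87.3% had a ratio at or below theirs.

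Between the pools, 2 of the 7 detected genes were at least 2-fold apart, Zfp36 and Zc3h12a, and both were higher in pool 1. Over all 11013 detected genes, 2.56% were 2-fold apart in either direction, 0.962% were 2-fold higher in pool 1 and 1.6% in pool 2. At 1.5-fold Zfp36l2 joined them, making 3 of 7, against 8.45% of all detected genes. The median log2 ratio of the 7 was 0.44, against -0.04 over all detected genes, and 6 of the 7 were higher in pool 1, compared with 42.7% of all detected genes. For Zfp36, 5 detected genes had a larger ratio (Egr1, Igkj2, Fos, Fosb and Dusp1), and for Zc3h12a 46 did. With 1 library a side no test between the pools was possible, and differences of animals, sort or preparation cannot be told apart.

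**Figure D3:**
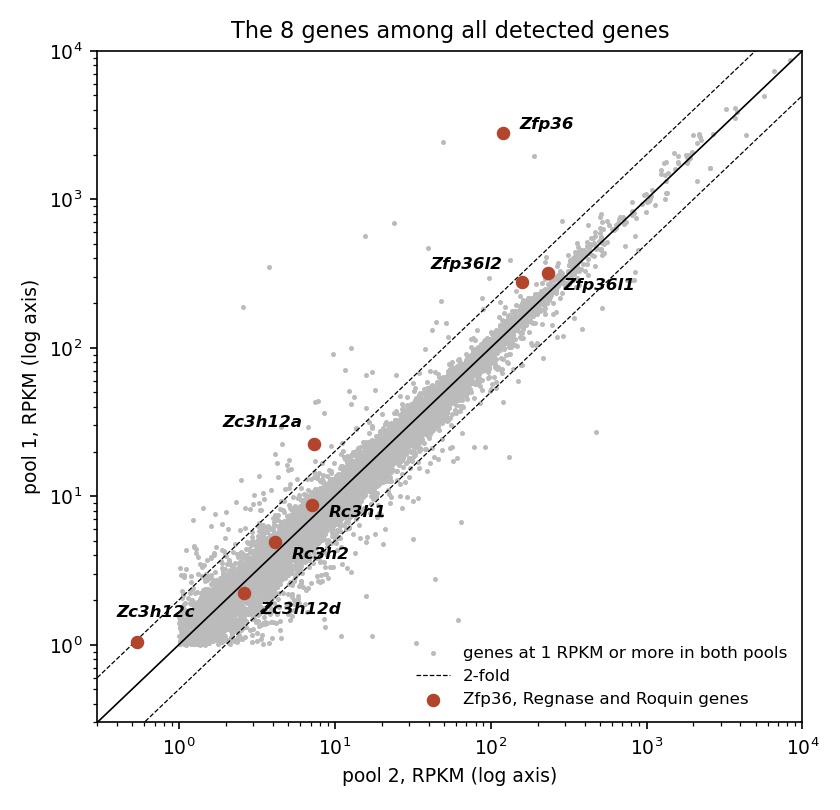
RPKM in pool 1 against pool 2 (log axes) for all 11013 genes detected in both pools (grey) and the 8 genes (labelled); dashed lines mark 2-fold. Zfp36 and Zc3h12a lie above the upper dashed line, and the other 6 lie between the lines.

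By distance over the 2 pools (log2(RPKM + 0.1) in each), the genes with values most like Zfp36 were Junb, at 1970 and 189.7 RPKM in pools 1 and 2, and Fos, at 2441 and 49.6 RPKM, with distances of 0.83 and 1.29. Those nearest to Zfp36l1 were Tnfrsf18 and Gm8451 (0.06 and 0.13) and to Zfp36l2 Pim1 and Rpl35a (0.24 and 0.31). Zc3h12a lay closest to Mir142 and Malat1 (0.37 and 0.38). The nearest genes to Zc3h12d were Fam3b and Lipt1, to Rc3h1 Large and Lrrc20, and to Rc3h2 Agtpbp1 and Bckdhb, all within 0.03.

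Zfp36 is itself an immediate early gene, one of the transcripts that stimulated cells induce within minutes, and the other genes of that class were higher in pool 1 with it. Of 25 listed immediate early genes, 23 were detected, all 23 were higher in pool 1, and 16 were at least 2-fold higher, with a median log2 ratio of 1.59. The shares over all detected genes were 42.7% for any higher value in pool 1 and 0.962% for a 2-fold higher one, and the median was -0.04. The 16 were Egr1, Fos, Fosb, Dusp1, Jun, Junb, Nr4a1, Klf4, Atf3, Egr3, Tnfaip3, Ier2, Jund, Cd69, Btg2 and Klf6. Their ratios ran from 89.2-fold for the zinc finger factor Egr1, at 348 RPKM in pool 1 and 3.81 RPKM in pool 2, to 2.05-fold for Klf6. The pattern was already known when the list was drawn up, so it is no independent support for the Zfp36 ratio, and its part in that ratio was not tested.

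The promoter of Zfp36 was read for motifs known from such genes, and its RefSeq window (GRCm38.p6, chr7:28379179-28379478, minus strand) is shown because Zfp36 has the largest ratio of the 8. Capitals mark the matches.
Zfp36 promoter: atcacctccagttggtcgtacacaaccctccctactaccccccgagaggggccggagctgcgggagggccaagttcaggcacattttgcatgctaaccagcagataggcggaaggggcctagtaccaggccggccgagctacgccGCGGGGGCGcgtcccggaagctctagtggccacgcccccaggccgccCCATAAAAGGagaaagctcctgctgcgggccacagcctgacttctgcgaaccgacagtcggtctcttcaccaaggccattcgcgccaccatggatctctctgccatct
The first match is the EGR motif GCGGGGGCG, from 105 to 97 bases before the start, and the second a CArG box, the element bound by serum response factor, from 58 to 49 bases before it. Windows of 250 bases before to 50 after the start were searched on both strands. Of 32851 such windows, 1.63% held a CArG box and 2.91% the EGR motif. Windows were found for 7 of the 8 genes, Zfp36l2 being the exception, and the other 6 held neither motif. Among the immediate early genes, 20 of 25 had a window, 1 of them (Egr2, which had 5 windows) held a CArG box and 5 the EGR motif. The CRE (TGACGTCA) was absent from the windows of the 7 genes. AP-1 (TGACTCA) was found in Rc3h1 alone, TATAAA in Zfp36l1 alone, and the NF-kappa B consensus in Zc3h12c alone, against 5.20%, 13.6% and 8.46% of all windows. These matches are not evidence of binding in these cells, and the part of the motifs in the Zfp36 ratio was not tested.

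The machinery that carries out decay for the 8 proteins was expressed throughout. All 48 listed genes of deadenylation, decapping and the exosome were detected, at a median log2 ratio of -0.05 against -0.04 over all detected genes. Of the 48, 1 was 2-fold apart, a share near the 2.56% of all detected genes. It was Btg2, an antiproliferative CCR4-NOT adaptor also on the immediate early list, at 215 RPKM in pool 1 and 88.5 RPKM in pool 2. The 11 CCR4-NOT subunits had a median log2 ratio of -0.20 and none reached 2-fold. The deadenylase Cnot6l led them at 186 RPKM in pool 1 and 223 RPKM in pool 2, ahead of the related catalytic subunit Cnot6 at 46.0 and 56.5, and the scaffold Cnot1 was at 32.9 and 38.8. The adaptor Btg1 was at 115 RPKM in pool 1 and 75.1 RPKM in pool 2.

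Poly(A) tail genes were led by the poly(A) binding protein Pabpc1 at 459 RPKM in pool 1 and 378 RPKM in pool 2, followed by Parn at 22.0 ± 3.41 and Pan3 at 13.4 ± 2.96. The 5 genes of that list had a median log2 ratio of 0.28, with 4 higher in pool 1 and 1 in pool 2. For decapping and 5′ decay the helicase Ddx6 stood at 94.6 ± 3.13 RPKM, Lsm14a at 88.5 ± 0.246 and Edc3 at 27.2 ± 3.43, and the exonuclease Xrn1 was lower at 9.47 ± 0.180. In the exosome list Exosc5 was at 64.7 ± 4.06, Wdr61 at 46.2 ± 3.83 and Exosc3 at 44.1 ± 4.96 RPKM.

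Other AU-rich element binding proteins, some of which stabilise the same mRNAs, were all detected. Their median log2 ratio was -0.09 and 0 of 8 were 2-fold apart, a count too small to set against the 2.56% of all detected genes. Ybx1 was at 107 ± 3.87 RPKM, Celf2 at 42.6 ± 0.518, Hnrnpd (AUF1) at 37.2 ± 4.61 and Elavl1 (HuR), which protects AU-rich mRNAs from decay, at 20.4 ± 2.07. Relatives outside the 8 were Khnyn at 22.7 ± 0.261, N4bp1 at 14.5 ± 0.508 and Nynrin at 7.33 ± 0.401 RPKM, all NYN nuclease domain genes. Zc3h12b, the remaining Regnase, was at 0.691 RPKM in pool 1 and 0.734 RPKM in pool 2, and Zfp36l3, a placental family member of rodents, had 0 reads in pool 1 and 1 read in pool 2.

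All 16 listed cofactors and regulators of the 8 proteins were detected, with a median log2 ratio of -0.05, against -0.04 over all detected genes. Dusp1, also on the immediate early list, was the only one 2-fold apart, a count too small to set against the 2.56% of all detected genes. Dusp1 encodes the phosphatase that switches off p38 MAP kinase, the pathway that inactivates tristetraprolin through the kinase MK2, and was at 692 RPKM in pool 1 and 23.9 RPKM in pool 2 (28.9-fold). The kinase genes were close between the pools, Mapk14 (p38 alpha) at 61.1 and 66.5 RPKM and Mapkapk2 (MK2) at 87.4 and 75.9 in pools 1 and 2. So were the 14-3-3 gene Ywhab at 202 ± 3.44 and the phosphatase subunit Ppp2ca at 166 ± 28.2 RPKM. Malt1, the protease that cleaves Regnase-1 and Roquins after antigen receptor signals, was at 25.1 RPKM in pool 1 and 23.5 RPKM in pool 2. Upf1 was at 14.9 ± 0.143 RPKM, Arid5a, an RNA-binding protein that opposes Regnase-1, at 20.2 ± 3.47, and the Roquin cofactor Nufip2 at 10.2 in pool 1 and 5.93 in pool 2.

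**Figure D4:**
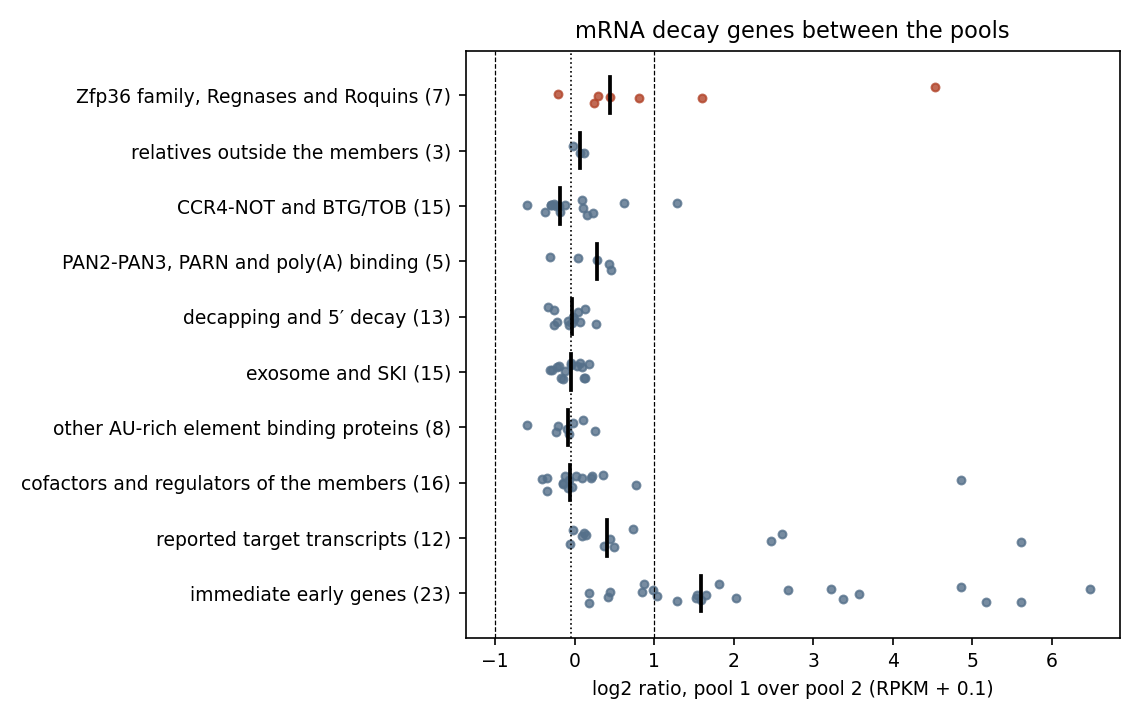
Log2 ratio of pool 1 over pool 2 (RPKM + 0.1) for detected genes of 10 lists, 1 point a gene with the number detected in brackets; bars mark list medians, the dotted line the median of all detected genes and the dashed lines 2-fold. The immediate early list is shifted right at a median of 1.59. The medians of the 4 decay lists run from -0.18 (CCR4-NOT and BTG/TOB) to 0.28 (PAN2-PAN3, PARN and poly(A) binding).

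Transcripts reported as targets of these proteins were uneven. Of 23 listed, 12 were detected, 10 of them higher in pool 1, with a median log2 ratio of 0.41, and 3 were 2-fold higher there, against 42.7% higher and 0.962% at least 2-fold higher over all detected genes. Without the targets that are also immediate early genes, 8 of 10 detected were higher in pool 1, 2 of them 2-fold, and the median was 0.25. The 3 at 2-fold were Fos, also an immediate early gene, Nfkbiz at 71.3 RPKM in pool 1 and 11.6 RPKM in pool 2, and Nfkbid at 43.7 and 7.80, which encode IkB family regulators of NF-kappa B and are Regnase-1 targets. The co-stimulators Icos, a known Roquin target, and Tnfrsf4 (OX40) were close between the pools, at 166 and 169 RPKM and at 46.5 and 42.8 RPKM. Il2ra was at 156 RPKM in pool 1 and 146 RPKM in pool 2. Among the cytokines, Csf2 was at 49.5 and 35.2 RPKM and Tnf at 9.81 and 5.85 in pools 1 and 2, while Il3 and Il12b were listed at 0 in both. Of the 23 targets, 15 held the heptamer (65.2%, against 27.1% of all genes), from 1 copy up to 9 in Csf2. The list includes reported targets of proteins that bind this heptamer, so the share is a description and no test. Il3, Myc, Nfkbiz, Nfkbid, Icos, Tnfrsf4, Ctla4 and Il2ra held 0, and the annotated 3′ UTR of Il3 was only 101 bases long.

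Over the 10084 other detected genes with a 3′ UTR read, the number of heptamers went with little change in the median ratio between the pools. Of these, 59 were 2-fold higher in pool 1 and 152 in pool 2, against 106 and 176 of all 11013 detected genes. Detected genes without a 3′ UTR read are left out of the classes. The median log2 ratio was -0.05 for the 7102 genes with 0 heptamers, -0.06 for 1930 with 1, -0.05 for 677 with 2, -0.02 for 236 with 3 and -0.05 for 139 with 4 or more. The share 2-fold higher in pool 1 was 0.507%, 0.518%, 1.03%, 1.69% and 1.44% in that order, the last resting on 2 genes and the one before on 4. The share 2-fold higher in pool 2 was 1.73%, 1.04%, 1.18%, 0.424% (1 gene) and 0% (0 genes). Of the 799 genes with a nonamer, which overlap the heptamer classes, 1.38% were 2-fold higher in pool 1 and 0.501% in pool 2. The heptamer classes also differed in 3′ UTR length, with medians of 850 bases at 0 heptamers and 3640 at 4 or more. They differed in level too, with medians of 17.3 and 8.73 RPKM, and the part of either was not tested.

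**Figure D5:**
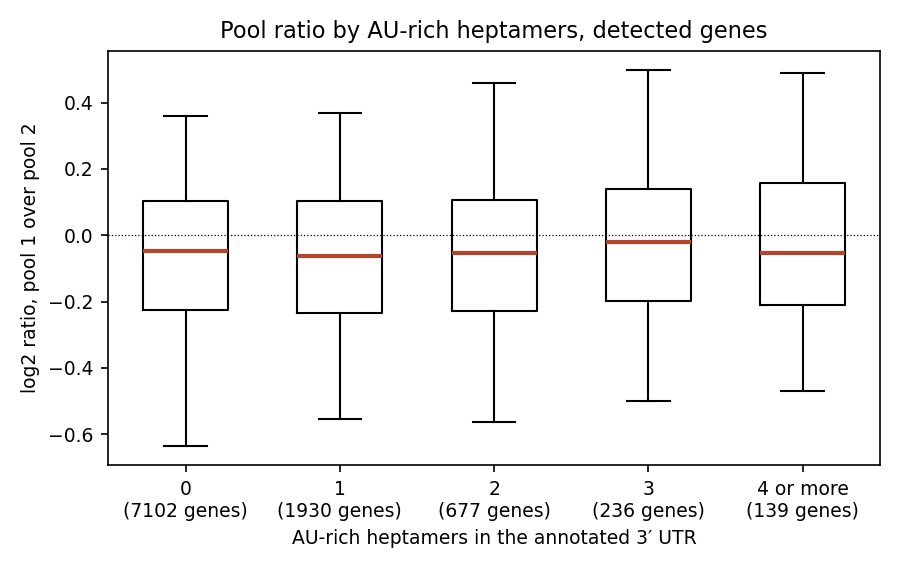
Log2 ratio of pool 1 over pool 2 for detected genes outside the 8, by the number of AU-rich heptamers in the annotated 3′ UTR. Only the 10084 genes with a 3′ UTR read are shown. Boxes span the quartiles with the median in red, and whiskers the 5th to 95th percentiles. The medians lie between -0.06 and -0.02 in all 5 classes.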

How the data were processed

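RNA (100 ng per library) was prepared with the Illumina TruSeq kit, per the labels' protocols. The authors deposited RPKM values, 1 file per library. Named in the submitters' processing notes, without their roles, are edgeR 3.8.2, edgeR 3.22.0, featureCounts, CASAVA 1.8.2 and the mm10 build; no aligner is named in the sources used here. The 8 genes and all lists were chosen with earlier results of these data known. Levels and ratios are on log2(RPKM + 0.1), which understates differences of low genes, and genes 2-fold apart were counted without a test. Library totals were those that gave whole reads for the most genes with a single annotated transcript length. These were 476 of 2418 such genes in pool 1 and 452 of 2395 in pool 2. With the length left free from 20 to 130000 bases, all 17233 genes above 0 came out as whole reads in both pools. The tolerance was the rounding of the deposited values plus 5% (under 0.25 of a read). The recovered reads sum to 90.0% of the total in pool 1 and 89.8% in pool 2. They are lower bounds where a multiple of the length also gives whole reads, as for Zc3h12a. Counting intervals are exact binomial (Clopper-Pearson) and cover counting error only, since reads without molecular identifiers are not independent molecules. Named genes are the 8, the 3 highest, the 2-fold and the zero genes of each list, the 2 nearest genes of each detected member, and some chosen after their values were seen. Cnot9 and Adgre1 were matched by ID to older symbols. Coordinates and promoters are from RefSeq (GRCm38.p6). Python 3.11.15 with pandas 2.3.3, numpy 2.4.6 and scipy 1.17.1 was used. Read recovery and fold calls were tested on simulated data.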

Additional observations from a re-analysis of the deposited data

How the results depend on the processing

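The 2 genes at least 2-fold apart remained Zfp36 and Zc3h12a under both other scalings, both other pseudocounts and detection at 0.5 RPKM, at 5 RPKM or above 0. At 1.5-fold Zfp36l2 joined them (3 genes), and at 4-fold 1 gene, Zfp36, was left. Over all genes, 282 were 2-fold apart, 102 with detection at 5 RPKM, 989 above 0, 931 at 1.5-fold and 41 at 4-fold, each by the construction of the filter or fold. Of the 8 genes, 5 were detected at 5 RPKM and all 8 at 0.5 RPKM or above 0. With a pool left out, the number detected ran from 7 to 8 and the median level of the 8 from 2.88 to 3.82 (log2). All 40 alternative ratios of the 8 genes kept their sign, which says little. A pseudocount or the recovered reads cannot reverse a sign, and both other scalings rest on shifts of only -0.04 and -0.05 (log2). Zfp36 lay between 4.52 and 4.58 (log2), Zc3h12a between 1.49 and 1.65 and Zc3h12c, the lowest gene, between 0.40 and 0.94. Without division by gene length, 27 of 28 pairs of the 8 genes kept the order of mean RPKM. Leaving out a pool leaves no ratio. No paired analysis was possible because there is 1 group.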
